A study of Rattus norvegicus with 12 samples.

Results

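Transcripts of the MAP kinase cascades were followed in rat left ventricle after treadmill training. The members were chosen by name: 8 genes were listed (Hras, Map2k1, Map2k2, Mapk3, Mapk8, Mapk9, Mapk14 and Map2k5), and every probe set whose annotation gave 1 single symbol equal to a listed gene was taken. This gave 18 of the 8740 probe sets in the table, for 6 of the 8 genes (4736 genes had such a probe set in all). Mapk3 and Hras had no probe set of their own under this rule and were not analysed here. The series held 12 single-channel arrays, 1 per sample, with total RNA of 6 exercised ventricles, taken after 7 weeks of treadmill running, and 6 ventricles of sedentary rats. Samples are named by the number in their label (exercised 1, 4, 5, 7, 8 and 9, and sedentary 13, 16, 17, 21, 23 and 24). The sources used here do not give the strain, sex and age of the rats, the running schedule or the interval between the last run and sampling. Nothing in the labels says whether the numbers stand for different animals, and p-values therefore refer to the spread among these arrays, some of which may be technical.

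MAP kinases stand at the end of relays in which a MAP kinase kinase kinase phosphorylates a MAP kinase kinase, which in turn phosphorylates a MAP kinase on a threonine and a tyrosine of its activation loop. In the ERK arm, growth factor receptors act through Ras proteins such as Hras and through Raf kinases on Map2k1 and Map2k2, known as MEK1 and MEK2, whose substrate is ERK. The JNK and p38 arms respond to cellular stress and inflammatory cytokines and end in Mapk8 and Mapk9 (JNK1 and JNK2) and Mapk14 (p38 alpha), while Map2k5 (MEK5) activates ERK5. In the heart these relays are known from the growth of cardiomyocytes under load. They are switched on and off by phosphorylation of proteins already present, which an array of transcript levels does not measure.

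The arrays were on a common scale, with median intensities of 840 to 875. The 6 cardiomyocyte markers on the array, of 7 listed (Myh6, Myl2, Tnni3, Tnnt2, Actc1 and Ckm), ranked among the brightest probe sets. The lowest of them, Ckm, was at percentile 99.6. As a set they mark heart muscle and were not used to tell ventricle from atrium. The 3 atrial markers (Myl7, Myl4 and Nppa) lay at percentiles 56.2 to 97.3. The atrial light chain Myl7 was at 8652 on sedentary 16 and between 1136 and 1923 on the other sedentary arrays. Summed over the 4 of 5 macrophage and leukocyte markers on the array, the intensity was 5852 to 11722 on exercised arrays, against 4610 to 5535 on sedentary ones. Of these markers Lyz2 was higher in exercised ventricles (0.997, limma adjusted p = 0.0404), while Ptprc and Cd14 gave -0.14 and -0.01 and Itgam was too dim to be tested. The 5 fibroblast markers summed to 27839 to 45673 on exercised arrays, against 23317 to 31008 on sedentary ones, with differences of 0.14 to 0.40 of which none passed the test. The 3 erythroid markers summed to 13476 to 38361, against 37211 to 42376, with none passing. The brightest of them, Hbb, was low on exercised 4 and 5, at 15784 and 8786, against 28362 to 33321 on the other exercised arrays. The part of these cell types in the values of the kinases was not tested. Sedentary 17 stood apart, being the array farthest from the median of the others of its group on 53.0% of the 6555 tested probe sets, where sedentary 13, 16, 21, 23 and 24 had 7.02% to 13.1%. It was also the farthest sedentary array on 8 of the 16 tested member probe sets. The difference of each tested member probe set is therefore given with and without it below.

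Training was accompanied by no detected difference in the transcripts of the kinases at any of the 4 arms. Of the 16 member probe sets bright enough to be tested, 0 passed an adjusted p of 0.05 (limma with Benjamini-Hochberg adjustment over 6555 probe sets), where 21 of all tested probe sets, or 0.32%, did. At an unadjusted p under 0.05 the count was also 0 of 16, against 16.2% of all tested probe sets (9.26% higher and 6.91% lower in exercised ventricles). The exercised and sedentary values overlapped on all 16, against 2.07% of all tested probe sets without overlap. By sign 6 were higher and 10 lower in exercised ventricles, where 51.4% of all tested probe sets were higher and 48.6% lower. Differences are exercised minus sedentary on the scale of log2(intensity + 363), where the added constant shrinks the fold change of dim probe sets. The members' differences had a median of -0.02 and ran from -0.13 to 0.07, beside a median of 0.003 over all tested probe sets. The median size, without regard to sign, was 0.046 for members and 0.061 for all.

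The precision of these values sets what could have been seen. The 95% limma intervals of the 16 differences all included 0, and none reached below -0.31 or above 0.25, which are ratios of 0.809 and 1.19 on the same scale. The narrowest, that of Map2k1 on D14591_s_at, ran from -0.04 to 0.11. This probe set was dim, so its interval depends on the added constant. With a constant of 50 its SE was 0.052, against 0.035 here. The bounds of the other intervals depend on the constant as well. With 50, Mapk9 on L27112_s_at had a difference of -0.18 with an SE of 0.104, against -0.13 and 0.079 here. Map2k5 on U37462_s_at had 0.13 with an SE of 0.112, against 0.07 and 0.067. In whole ventricle, fewer cells of a type and less RNA per cell cannot be told apart.

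**Figure D1:**
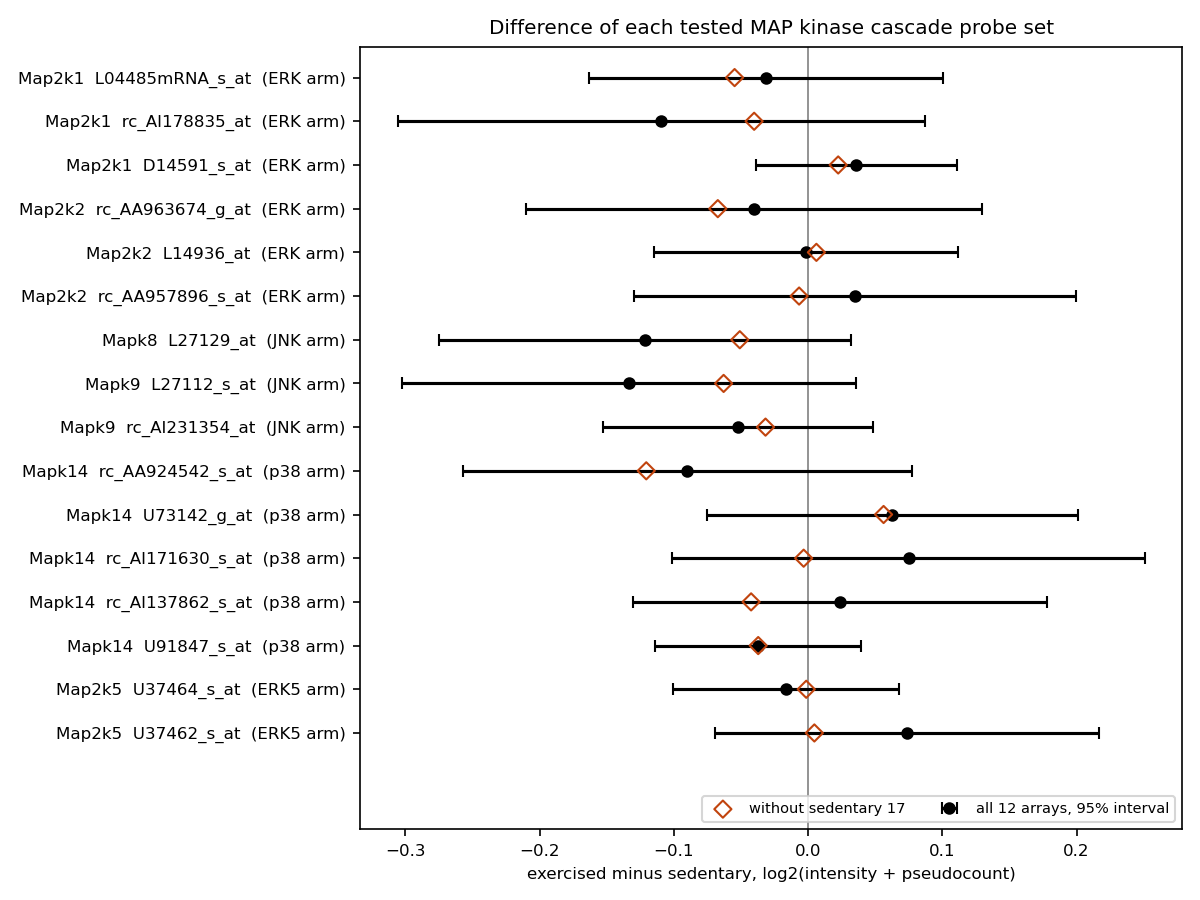
Exercised minus sedentary difference of each tested MAP kinase cascade probe set (x axis, log2(intensity + 363)), with 95% limma intervals over all 12 arrays (black) and the difference without sedentary 17 (open orange diamonds). All 16 intervals include 0, and the JNK arm probe sets move towards 0 without sedentary 17.

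In the ERK arm, both MAP kinase kinases were measured on 3 probe sets each. Map2k1, the kinase that phosphorylates ERK, had on its brightest probe set (L04485mRNA_s_at) a lowest, median and highest intensity of 4501, 5108 and 5716 in exercised ventricles, against 4785, 5292 and 5662 in sedentary ones. The exercised values thus spanned the whole sedentary range, and the difference was -0.03 ± 0.062 (SE, n = 6 per group, limma adjusted p = 0.811), or -0.05 without sedentary 17. On rc_AI178835_at the 6 exercised arrays had 1248, 1487 and 1605, against 1339, 1512 and 2149 in the sedentary group. Here sedentary 16 and 17 were the high arrays, at 1909 and 2149, and the 4 other sedentary arrays lay at 1339 to 1621, close to the exercised range. The difference of this probe set was -0.11 ± 0.092 (adjusted p = 0.561), and -0.04 without sedentary 17. The dimmest Map2k1 probe set, D14591_s_at, had 549, 622 and 654 in exercised and 544, 593 and 635 in sedentary ventricles, with a difference of 0.04 ± 0.035 (adjusted p = 0.619), or 0.02 without sedentary 17. The 3 probe sets thus gave differences of either sign, each smaller than its interval.

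Map2k2, the second MAP kinase kinase of the ERK arm, gave intensities that overlapped almost completely. On rc_AA963674_g_at the lowest, median and highest were 3692, 4072 and 4666 in exercised ventricles, against 3809, 4039 and 4880 in sedentary ones (difference -0.04 ± 0.079, adjusted p = 0.813). On L14936_at they were 2896, 3135 and 3505, against 2971, 3200 and 3302, and the means of 3161 ± 239 and 3160 ± 130 (SD, n = 6) were nearly equal (difference -0.0018 ± 0.053, adjusted p = 0.989). On rc_AA957896_s_at they were 1918, 2213 and 2570, against 1817, 2126 and 2550 (difference 0.03 ± 0.077, adjusted p = 0.838). Within the exercised group, arrays 7, 8 and 9 were above arrays 1, 4 and 5 on all 3 probe sets. Whether this order belongs to the ventricles or to the handling of the arrays was not tested. In the sedentary group, arrays 16 and 24 were the brightest on rc_AA963674_g_at and rc_AA957896_s_at. Without sedentary 17 the differences of the 3 probe sets, in the order given, were -0.07, 0.0062 and -0.0067.

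In the JNK arm, the 3 tested probe sets all had negative differences that did not pass the test and that were smaller in size without sedentary 17. Mapk8, which encodes JNK1, had on L27129_at 1033, 1118 and 1185 as lowest, median and highest in exercised ventricles, against 1061, 1206 and 1690 in sedentary ones. The value of 1690 was that of sedentary 17, and the 5 other sedentary arrays lay between 1061 and 1243. The mean was 1117 ± 58.1 in exercised and 1257 ± 222 in sedentary ventricles (SD, n = 6), a difference of -0.12 ± 0.072 (limma adjusted p = 0.413), with 6 of 6 exercised arrays below the sedentary mean. Without sedentary 17 it was -0.05 ± 0.040 (adjusted p = 0.556), with 4 of 6 below.

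Mapk9, which encodes JNK2, gave a similar picture on its brightest probe set. On L27112_s_at it had 717, 813 and 891 in exercised ventricles, against 737, 908 and 1273 in sedentary ones, the highest again being sedentary 17 and the next 969. The difference was -0.13 ± 0.079 (adjusted p = 0.413, 6 of 6 exercised arrays below the sedentary mean), and -0.06 ± 0.053 without sedentary 17 (adjusted p = 0.590, 5 of 6 below). On rc_AI231354_at the values were 441, 504 and 531 in exercised and 451, 526 and 585 in sedentary ventricles (difference -0.05 ± 0.047, adjusted p = 0.592), or -0.03 without sedentary 17. The remaining probe set, rc_AI231354_g_at, was too dim for the test, and there the order was the other way, with a mean of 380.8 ± 34.7 in exercised and 343.6 ± 64.7 in sedentary ventricles and sedentary 17 the lowest of all 12 arrays at 229. Sedentary 17 was therefore the highest array on 2 Mapk9 probe sets and the lowest on the other.

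In the p38 arm, Mapk14, which encodes p38 alpha, was covered by 6 probe sets, of which 5 were tested. The brightest, rc_AA924542_s_at, had 1948, 2386 and 2585 in exercised ventricles, against 2160, 2451 and 2916 in sedentary ones, with exercised 5 and 8 the low arrays and sedentary 24 the high one. Its difference of -0.09 ± 0.078 (limma adjusted p = 0.575) was -0.12 without sedentary 17. U73142_g_at had 1943, 2094 and 2371 in exercised and 1756, 1974 and 2300 in sedentary ventricles (0.06 ± 0.064, adjusted p = 0.637, and 0.06 without sedentary 17). The groups overlapped on each of these probe sets, and the differences were of opposite sign.

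On 2 further tested Mapk14 probe sets sedentary 17 was the lowest array, where it had been the highest for Mapk8. On rc_AI171630_s_at the exercised values of 1531, 1617 and 1692 lay within the sedentary range of 1064 to 1798 (median 1561). Sedentary 17 was the 1064, and the 5 other sedentary arrays had 1422 to 1798. The difference was 0.07 ± 0.082 (adjusted p = 0.662), and -0.0033 without that array. On rc_AI137862_s_at the exercised values were 1335, 1442 and 1548, against 1045, 1453 and 1607 in sedentary ventricles, sedentary 17 again being the lowest. The difference was 0.02 ± 0.072 (adjusted p = 0.886), and -0.04 without it, so the sign turned. U91847_s_at gave 605, 652 and 693 in exercised and 594, 689 and 715 in sedentary ventricles (-0.04 ± 0.036, adjusted p = 0.617), with sedentary 13 the low array and the same -0.04 without sedentary 17. The probe set below the test's brightness limit, U73142_at, had a mean of 357.7 ± 51.4 in exercised and 315.2 ± 88.1 in sedentary ventricles.

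**Figure D2:**
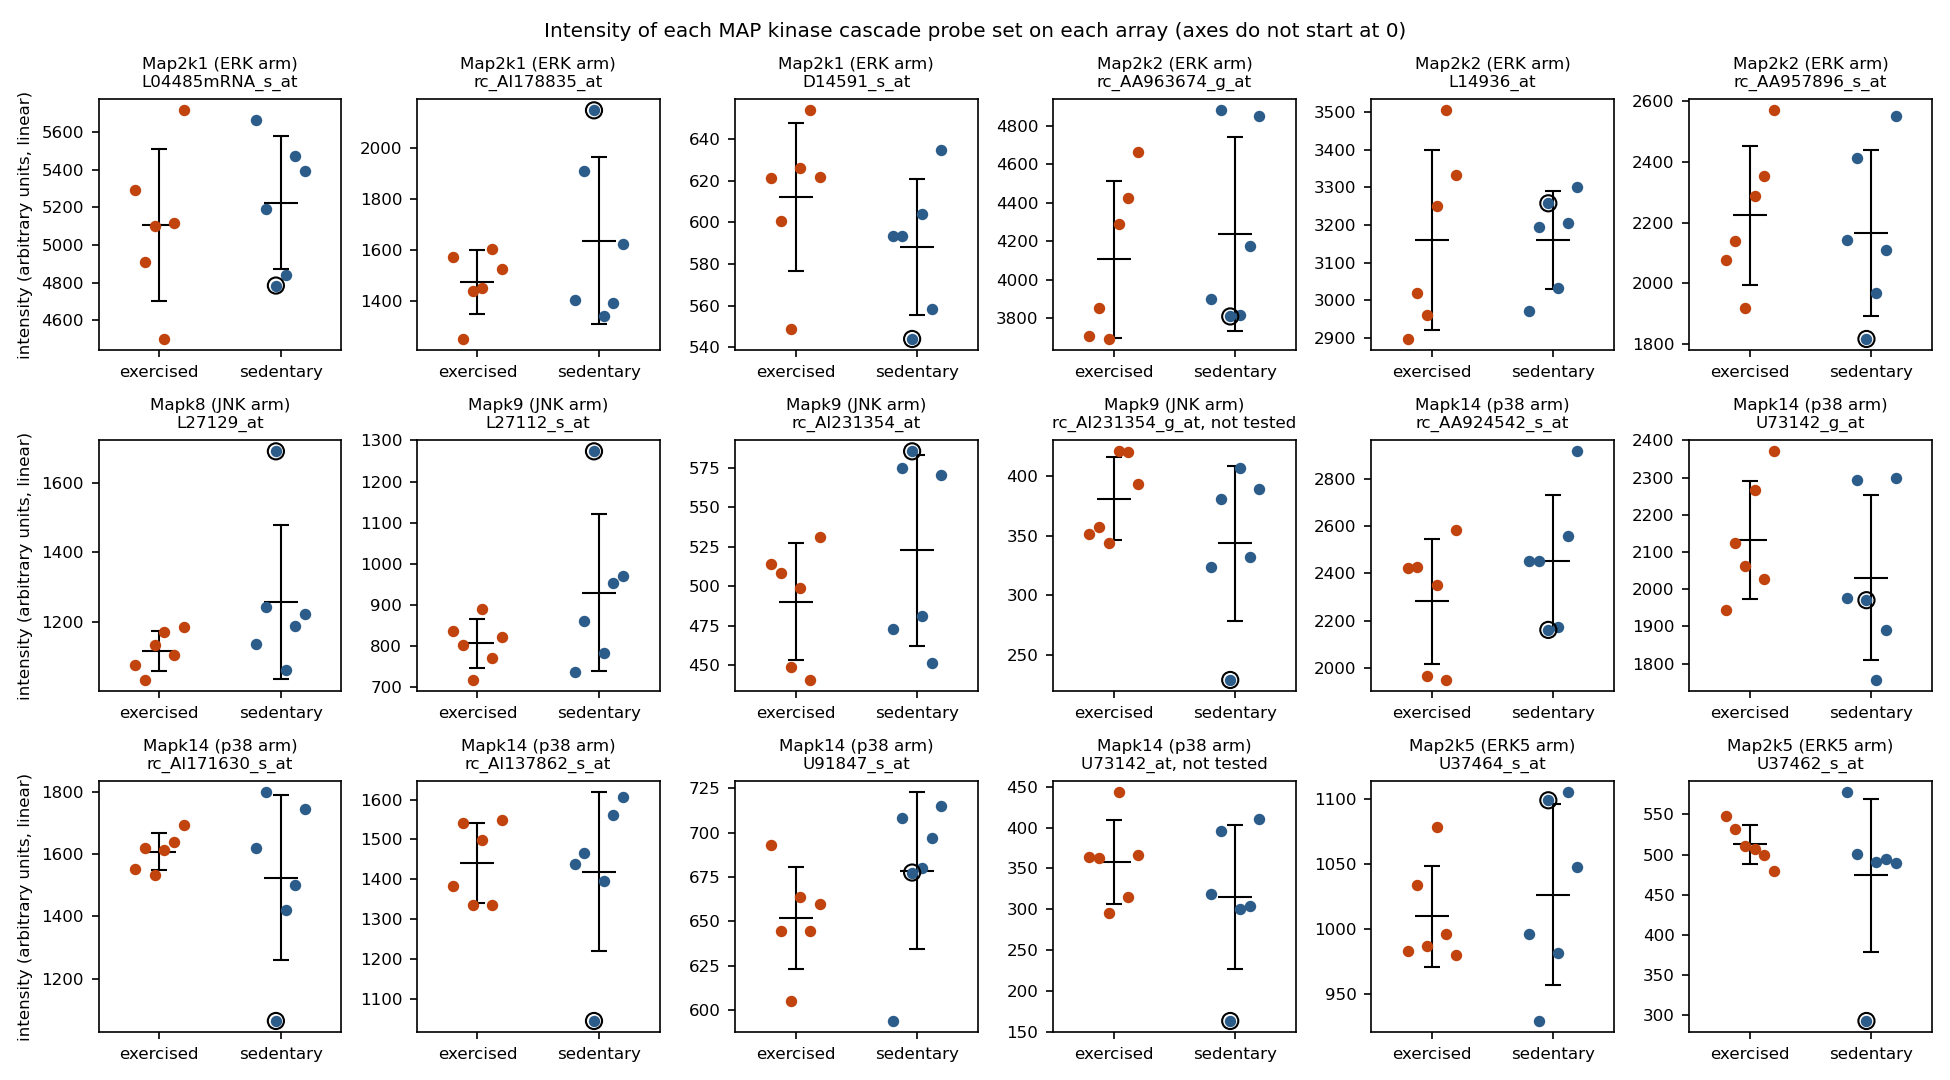
Intensity of each of the 18 MAP kinase cascade probe sets (y axes, arbitrary linear units, not starting at 0) on the 6 exercised (red) and 6 sedentary (blue) arrays, with mean and SD as black bars and sedentary 17 ringed. The groups overlap in every panel, and sedentary 17 is the highest array for Mapk8 (1690) and for Mapk9 on L27112_s_at (1273), and the lowest for Mapk14 on rc_AI171630_s_at (1064).

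In the ERK5 arm, Map2k5, whose product is the dedicated upstream kinase of ERK5, was measured on 2 probe sets. U37464_s_at had 980, 992 and 1079 in exercised ventricles, against 929, 1022 and 1105 in sedentary ones, and its difference of -0.02 ± 0.039 (limma adjusted p = 0.850) had one of the narrower intervals, from -0.10 to 0.07, and was -0.0014 without sedentary 17. U37462_s_at had 480, 509 and 548 in exercised and 293, 493 and 578 in sedentary ventricles. All 6 exercised arrays were above the sedentary mean of 474.2 ± 95.1, which sedentary 17 pulled down with its 293 while the others lay at 489 to 578. The difference was 0.07 ± 0.067 (adjusted p = 0.594), and 0.0047 without sedentary 17, with 3 of 6 exercised arrays above the mean of the rest.

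Over the whole set, leaving out sedentary 17 made the difference smaller in size on 10 of the 16 probe sets, and the range became -0.12 to 0.06. By sign 4 were then higher and 12 lower in exercised ventricles, with a median of -0.03 beside 0.004 over all tested probe sets. The 16 come from 6 genes, with 5 from Mapk14, so these signs are not independent and no lean is read from them. The smallest adjusted p was 0.465, and 0 of 16 had an unadjusted p under 0.05, where 16.9% of all tested probe sets did in the same fit. Leaving out other arrays brought no member past the threshold either. The smallest adjusted p over those fits was 0.231, for Mapk9 on L27112_s_at without sedentary 13, where its difference was -0.18, and the next was 0.266, for Mapk8 without sedentary 21, at -0.16. Each of these had an unadjusted p under 0.05 in that fit alone.

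The arms were also compared array by array, as the mean of their centred log2 values. For the ERK arm (6 probe sets) this mean lay between -0.09 and 0.10 on the exercised arrays and between -0.09 and 0.11 on the sedentary ones. For the JNK arm (3 probe sets) it lay between -0.11 and 0.01 on the exercised arrays, against -0.08 to 0.32 on the sedentary ones, or -0.08 to 0.09 without sedentary 17. The p38 arm (5 probe sets) ran from -0.08 to 0.09 in exercised and from -0.18 to 0.15 in sedentary ventricles, and the ERK5 arm (2 probe sets) from -0.03 to 0.05 and from -0.15 to 0.06. The lowest p38 and ERK5 values and the highest JNK value were those of sedentary 17.

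**Figure D3:**
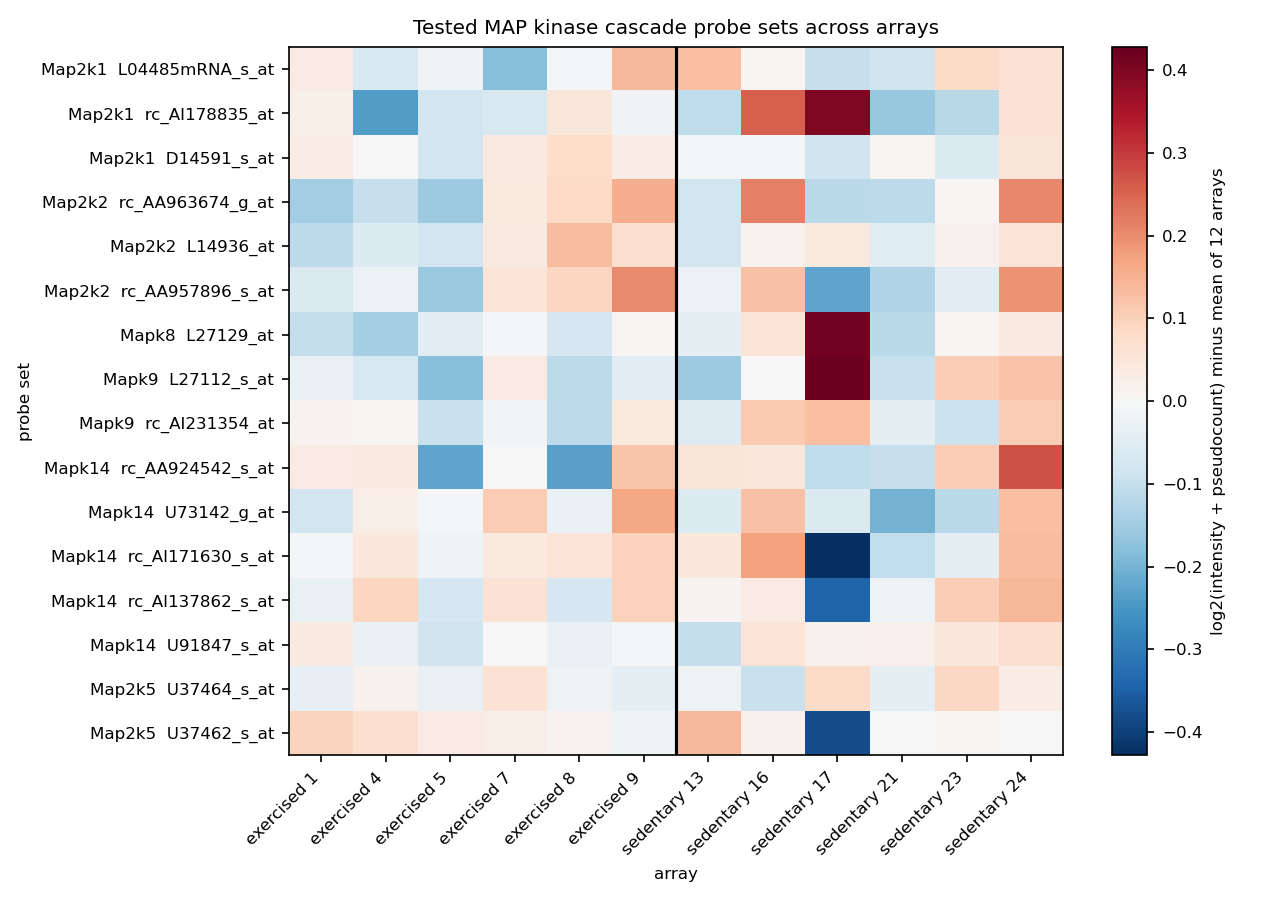
Tested MAP kinase cascade probe sets (rows) on the 12 arrays (columns, exercised left and sedentary right of the line), coloured by log2(intensity + 363) minus the mean of the 12 arrays. The strongest colours are in the column of sedentary 17, which is high for Mapk8 and Mapk9 and low for Mapk14 and Map2k5 on some probe sets, and no block of rows separates the groups.

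Isozymes of 1 step did not differ in their response to a degree that could be detected. The within-array difference of Mapk8 minus Mapk9, on the brightest probe set of each, was 0.34 ± 0.084 in exercised and 0.33 ± 0.081 in sedentary ventricles (SD, n = 6), and the change of 0.01 gave an exact two-sided permutation p of 0.794. That of Map2k1 minus Map2k2 was 0.29 ± 0.15 in exercised and 0.28 ± 0.15 in sedentary ventricles (change 0.0088, exact permutation p = 0.916). Adjusted over these 2 contrasts, both p-values were 0.916, where the 924 splits of the arrays allow 0.0022 at the lowest. These values set changes against each other and do not compare the levels of the isozymes, since brightness also depends on the probes.

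The spread within groups was set beside that of all tested probe sets, with no test of the difference. The median coefficient of variation of the 16 tested members was 7.42% in exercised and 11.7% in sedentary ventricles, beside 6.90% and 9.65% over all tested probe sets. Without sedentary 17 the sedentary median was 8.59% for members and 6.69% for all. In that comparison the sedentary coefficient was above the exercised one on 11 of 16 members, or 68.8%, against 45.2% of all tested probe sets. With sedentary 17 it was on 12 of 16, or 75%, against 67.3%. The widest sedentary spread among the members was that of Mapk9 on L27112_s_at, at 20.6%, and the narrowest exercised spread that of Mapk14 on rc_AI171630_s_at, at 3.67%.

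Probe sets of 1 gene did not always vary together, which bears on how far a single probe set stands for its transcript. Over the 12 arrays, with group means removed, Pearson's r between the 3 probe sets of Map2k2 was 0.56 to 0.94, and that between the tested Mapk9 probe sets was 0.59. Without sedentary 17 these were 0.74 to 0.95 and 0.47. Between the 5 tested Mapk14 probe sets r lay between 0.11 and 0.84, with U91847_s_at the least like the others, and between 0.18 and 0.83 without sedentary 17. The pair of rc_AI171630_s_at and rc_AI137862_s_at had the 0.84, which was 0.53 without that array. Between the 3 Map2k1 probe sets r was -0.15 to 0.14, or -0.03 to 0.29 without sedentary 17, and between those of Map2k5 it was -0.44, or -0.17 without sedentary 17. These are descriptions over arrays that share sedentary 17, and no test was made of them. Probe set names ending in _s_at can match more than 1 transcript.

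The genes whose within-group pattern was most like that of a member were looked up for its brightest tested probe set, among all tested probe sets with 1 gene symbol. They were chosen for their Pearson r over the 12 arrays, so no p is given. For Map2k2 they were Crot (r = 0.95), which transfers fatty acids onto carnitine in peroxisomes, and Park7 (0.94), for Mapk14 the lipid kinase gene Pip4k2c (0.94) and the hexokinase Hk2 (0.90), and for Map2k5 the translation repressor Eif4ebp1 (0.94) and the alkaline phosphatase Alpi (0.89). For Mapk9 they were the Ras gene Nras (0.96) and Gas7 (0.96), for Mapk8 the aldo-keto reductase Akr7a3 (0.98) and Tmem71 (0.97), and for Map2k1 the glutathione transferase Gstm2 (0.87) and RT1-M5 (0.86). The 2 arrays farthest from the median of the Mapk8 residuals were sedentary 17 and 21, and without them r was 0.85 for Akr7a3 and for Tmem71. Without the 2 farthest arrays of each of the other members r stayed between 0.83 and 0.96. The arrays kept were among those used to choose the genes, so these values are no independent check. A search over so many probe sets on 12 arrays also gives high r by selection alone.

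Other genes of the cascades were read from a list of 115 genes in 7 roles, of which 65 had a probe set with 1 symbol and 59 were tested. Each gene is represented by its brightest tested probe set. None of the 59 passed an adjusted p of 0.05 (limma, 0.32% of all tested probe sets), nor did any of their 102 probe sets. At an unadjusted p under 0.05 there were 7 of 59, or 11.9%, 3 higher and 4 lower in exercised ventricles, against 16.2% of all tested probe sets. Over all 102 probe sets there were 13, or 12.7%. The median difference of the 59 was -0.01, with 27 above 0 and 32 below it. Of all tested probe sets 51.4% were higher and 48.6% lower.

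Upstream of the members, 6 of 11 Ras proteins and their regulators were higher and 5 lower by sign, with 0 at an unadjusted p under 0.05 on the brightest probe set. Rap1b, a relative of Ras, gave -0.16 on its brightest probe set and 0.21 on rc_AA944856_at (limma adjusted p = 0.204), where the unadjusted p was under that limit. Of the other kinases, 4 of 12 were higher by sign and 8 lower. These included the Raf kinase Araf, the p38 kinase kinase Map2k6, the p38 gamma kinase Mapk12 and ERK5 itself, Mapk7, with differences of 0.05, -0.12, 0.06 and -0.10. Mapk7 is the substrate of Map2k5, and its other probe set gave 0.01. None of these 12 had an unadjusted p under 0.05 on its brightest probe set. On a dimmer one the JNK pathway kinase kinase kinase Map3k1 gave -0.15 (rc_AI102620_at, limma adjusted p = 0.234) and the Rac-activated kinase Pak2 -0.06 (U35345_s_at, adjusted p = 0.309), both with an unadjusted p under that limit.

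Scaffolds and inhibitors of the cascades gave 8 higher and 4 lower of 12 by sign (median 0.03). The adaptor genes Ywhab and Ywhaz, whose products bind phosphorylated Raf and other partners, had differences of opposite sign. Ywhab had 2558, 2854 and 3139 as lowest, median and highest in exercised ventricles, against 2151, 2455 and 2696 in sedentary ones (0.19 ± 0.064, limma adjusted p = 0.166). Ywhaz had 2630, 2792 and 3018 in exercised and 2902, 3234 and 3642 in sedentary ventricles (-0.19 ± 0.057, adjusted p = 0.128), and its other probe sets gave 0.002 and -0.04. The groups overlapped for both. Spry1, a feedback inhibitor of receptor tyrosine kinase signalling, gave 0.07 ± 0.051 (adjusted p = 0.487). Pea15 gave -0.01 on its brightest probe set and 0.16 on the dimmer rc_AA894345_at (limma adjusted p = 0.151), where the unadjusted p was under 0.05.

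Among phosphatases that switch MAP kinases off, 6 were higher and 5 lower of 11 by sign. Dusp5, which removes phosphate from ERK in the nucleus, had 969, 1055 and 1088 in exercised ventricles, against 1186, 1208 and 1241 in sedentary ones. Its groups did not overlap, which held for 1 of the 59 tested listed genes, each on its brightest probe set. That count is near the share over all tested probe sets, 2.07%, and does not set the list apart. The difference of Dusp5 was -0.16 ± 0.033, with a limma adjusted p of 0.0542, short of the threshold. Dusp5 passed in 3 of 13 other settings and in 2 of 12 fits with 1 array left out, and did not pass in the other 10 of each. The 2 were those without sedentary 17 (limma adjusted p = 0.0403) and without exercised 1 (0.0470). Dusp4, another nuclear phosphatase of MAP kinases, gave -0.11 ± 0.051 (0.323). The metal-dependent phosphatases Ppm1b and Ppm1a, which act on stress kinases, gave 0.18 ± 0.055 (0.130) and 0.19 ± 0.11 (0.391), and their other probe sets 0.10 and 0.06. Ppm1a was 0.11 without sedentary 17.

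Downstream of the MAP kinases, differences were positive for 3 of 13 kinases and transcription factors and negative for 10, and their median was -0.05. Over all tested probe sets 51.4% were positive and 48.6% negative, and the signs of the 13 were not tested. Mapkapk2, a kinase activated by p38, had 3530, 4035 and 4366 in exercised ventricles, against 3277, 3563 and 3961 in sedentary ones (0.15 ± 0.061, limma adjusted p = 0.234). Jund, a partner in the AP-1 transcription factor, had 599 to 646 (mean 625.3 ± 17.5) in exercised and 630 to 890 (mean 714.3 ± 94.9) in sedentary ventricles (-0.12 ± 0.050, adjusted p = 0.248), and -0.08 without sedentary 17, the array at 890. Myc, a transcription factor stabilised by ERK, gave -0.11 ± 0.048 (adjusted p = 0.276). Exercised and sedentary values overlapped for all 3. Jun gave -0.13 on its brightest probe set (limma adjusted p = 0.448) and -0.14 on rc_AA945867_at. Its X17163cds_s_at and rc_AA944014_at gave -0.16 and -0.10, with an unadjusted p under 0.05 (limma adjusted p = 0.276 and 0.282).

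**Figure D4:**
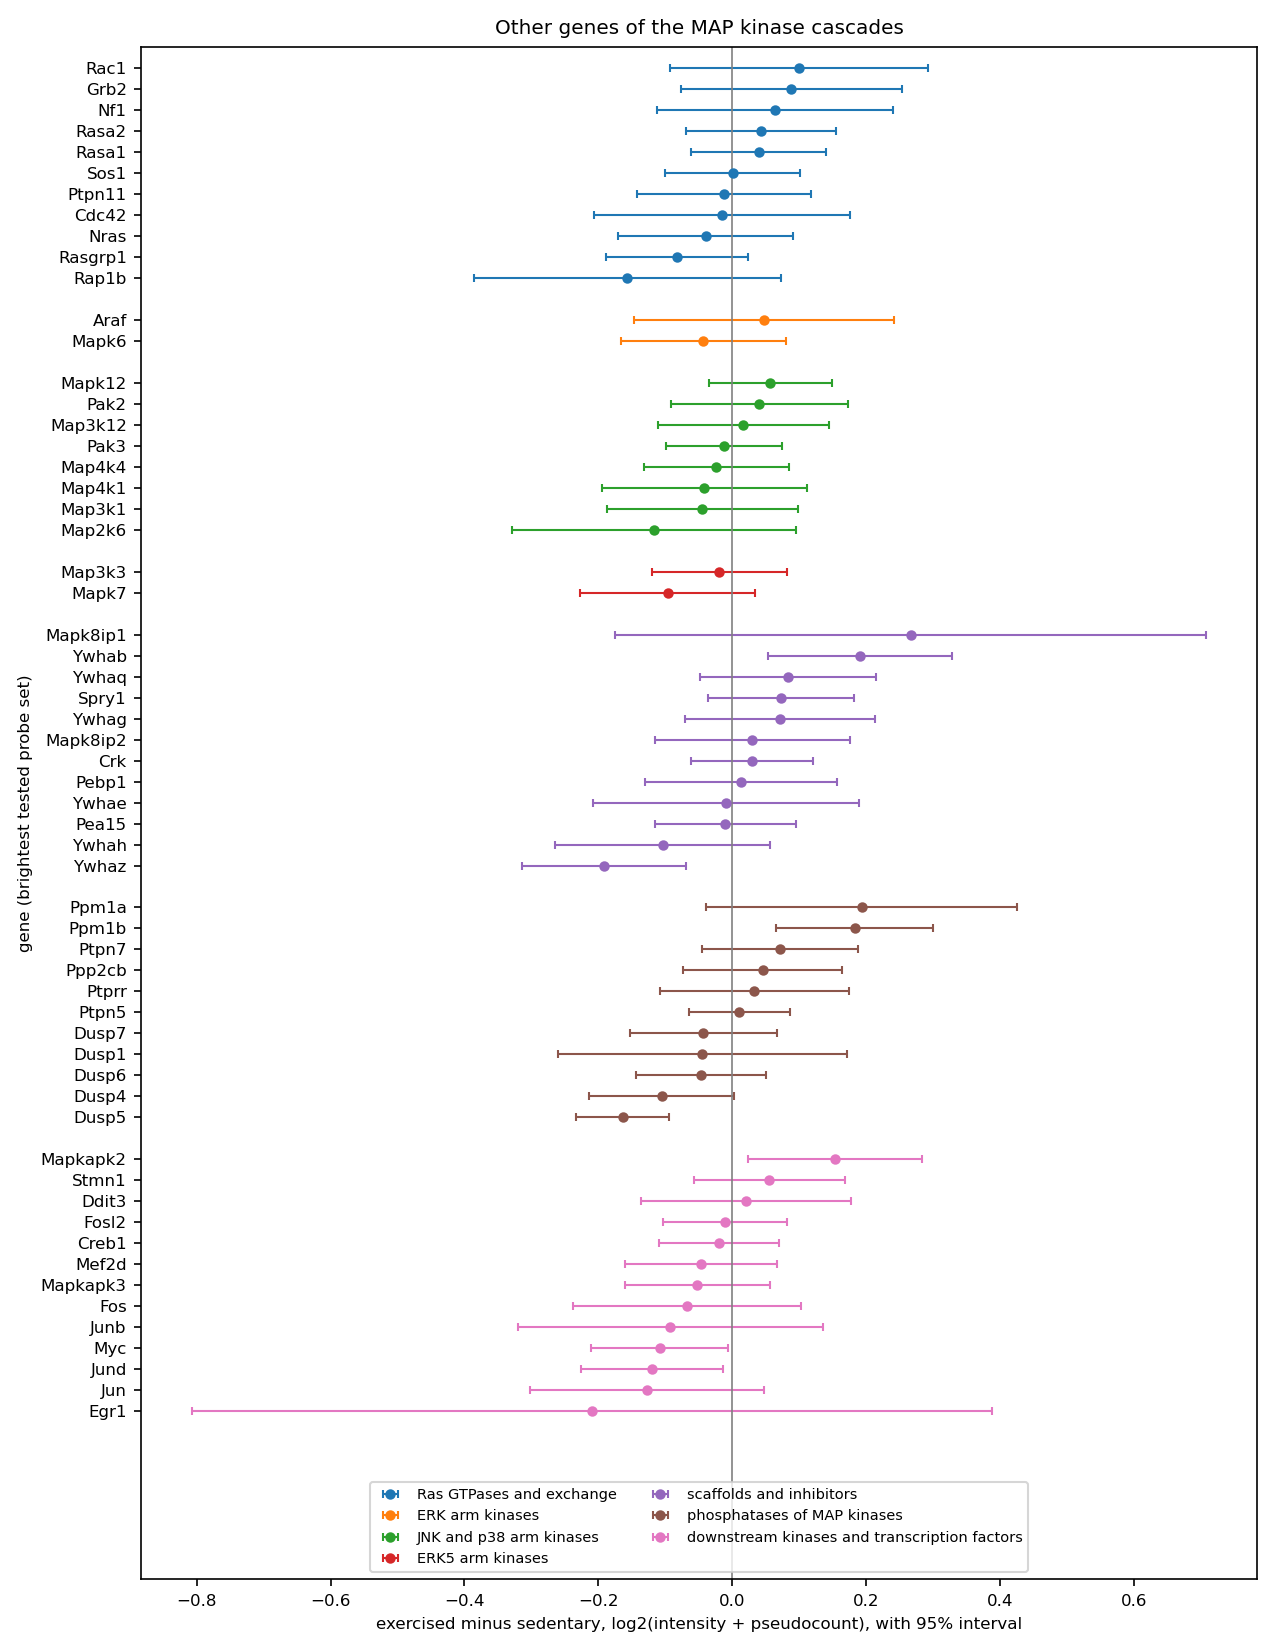
Exercised minus sedentary difference (x axis, log2(intensity + 363), with 95% limma intervals) of the 59 tested genes of the wider MAP kinase cascades, 1 row per gene (y axis) and coloured by role. None passed the adjusted threshold; the interval of Dusp5 lies between -0.23 and -0.09, and those of most other genes include 0.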

How the data were processed

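The authors deposited 1 linear intensity value for each probe set and array; the array software, background correction and scaling behind them are not named in the labels or headers. The deposited scaling was kept (2%-trimmed means of the arrays within a factor of 1.05). Each array was grouped by its title; the numbers in titles are not shared between groups and no batch is given. Values were taken as log2(intensity + 363), the 20th percentile of all values, and probe sets with a mean over the 12 arrays above 434, the 25th percentile of the means, were tested (6555 of 8740). The test was limma 3.58.1 in R 4.3.3 with lmFit and a trended eBayes. It was two-sided, adjusted by Benjamini-Hochberg over all tested probe sets, with a threshold of 0.05. The number of arrays limits the precision. The code was tested on simulated data. Isozyme contrasts used exact permutation over arrays (scipy 1.17.1).

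Genes were named from the platform's annotation: 7006 probe sets had 1 gene, 308 several and 1426 none. No coordinates are given, since no genome build is named. The members, the gene list and the marker lists were chosen with earlier results of these data known. Named were every member probe set, the 5 listed genes of smallest unadjusted p in each direction, and the 2 genes most like each member; the other genes given a value were named to illustrate a role or as markers, after values were seen. Alternatives tried were other pseudocounts, a floor, other filters and scalings, other limma settings, array weights, a rank-sum test, a threshold of 0.10, and leaving out arrays.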

Additional observations from a re-analysis of the deposited data

Results flagged for a closer look

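In groups of 6, an array whose gap to its nearest neighbour exceeded Dixon's 95% critical share of the group's range was picked out, which chance does in about 1 in 20 groups. Of 56 groups examined, 5 held such an array, and in 4 of them it was sedentary 17. Its intensity was 1690 for Mapk8 on L27129_at, against 1061 to 1243 on the other sedentary arrays. For Mapk14 on rc_AI137862_s_at it was 1045, against 1395 to 1607. For Map2k5 on U37462_s_at it was 293, against 489 to 578, and for Ppm1a on J04503_at 590, against 928 to 1074. The other was sedentary 13, at 594 for Mapk14 on U91847_s_at, against 678 to 715. The part of sedentary 17's general deviation in these values was not tested.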

How the results depend on the processing

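No member probe set passed under any of the 26 alternatives, though under 1 of them, the rank-sum test, none could have passed. Over them, 374 of 396 member differences kept their sign and 22 did not, and 8 of 16 probe sets never changed sign. The signs that turned were those of differences that had not passed the test. Without sedentary 16 and 17 together, Map2k1 on rc_AI178835_at gave 0.0273, Map2k2 on L14936_at 0.0118 and Mapk14 on rc_AI137862_s_at -0.0475. Without exercised 4 and 5 together, Map2k2 gave 0.0130 on rc_AA963674_g_at and 0.0326 on L14936_at. With array weights, Map2k2 on rc_AA957896_s_at gave -0.0353, Mapk14 -0.0144 on rc_AI171630_s_at and -0.0306 on rc_AI137862_s_at, and Map2k5 on U37464_s_at 0.0119. With median scaling, Map2k2 on L14936_at gave 0.0046. With 1 array left out the ranges that crossed 0 were -0.0628 to 0.0016 for Map2k1 on L04485mRNA_s_at, -0.0293 to 0.0201 for Map2k2 on L14936_at, -0.0067 to 0.0770 on rc_AA957896_s_at, and -0.0033 to 0.116 and -0.0425 to 0.0545 for Mapk14 on rc_AI171630_s_at and rc_AI137862_s_at. The isozyme contrasts ran from -0.0138 to 0.0364 (Mapk8 minus Mapk9) and -0.0316 to 0.0545 (Map2k1 minus Map2k2) with 1 array left out. Map2k1 minus Map2k2 was -0.0370 without sedentary 16 and 17 and -0.0326 without exercised 4 and 5, and Mapk8 minus Mapk9 was -0.00017 without exercised 4 and 5.

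The count over the whole array, 21, depended on the setting. It was 32 with no filter, 50 with the filter at the median, 42 without the mean-variance trend, 160 with array weights, 144 at a threshold of 0.10, 5 without sedentary 16 and 17 and 4 without exercised 4 and 5. The exact rank-sum test called 0, with 989 at an unadjusted p under 0.05. With 6 against 6 arrays its p cannot fall below 0.0022, which only probe sets without overlap reach. There were 136 of these, too few for any to pass after adjustment over 6555 probe sets, so this 0 does not bear on the count. With 1 array left out the count ran from 3 to 37, being 35 without exercised 1, 4 without exercised 5, 8 without exercised 7, 12 without exercised 9, 37 without sedentary 13, 6 without sedentary 16, 13 without sedentary 21, 3 without sedentary 23 and 4 without sedentary 24. Dusp5 passed with the filter at the median (limma adjusted p = 0.0392), without the trend (0.0423) and with array weights (0.0194), and its adjusted p over all alternatives ran from 0.0194 to 0.181. The causes were not tested. No paired analysis was possible because no number in the titles occurs in both groups.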

Other observations

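Of the probe sets left out by the rule, L27128_at was annotated to Mapk8 and Mapk10 together and M13011cds_at to Hras and Hrasl1 together, so their signal cannot be assigned to 1 gene. L27128_at had 426.5 ± 25.4 in exercised and 449.3 ± 49.2 in sedentary ventricles (SD, n = 6, difference -0.04, limma adjusted p = 0.647). M13011cds_at had 2415 ± 182 in exercised and 2474 ± 190 in sedentary ventricles (-0.03, adjusted p = 0.812).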
